A study of Oryza sativa with 4 samples.

Results

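The 7 rice genes for DNA methylation and demethylation described here are MET1a, MET1b, CMT3a, DRM2, DDM1a, DDM1b and ROS1a, taken by their locus identifiers from a table of reads for 45027 loci. All 7 were in the table and all 7 passed the filter on low counts, which left 22615 loci. RNA-seq compared young panicles of the japonica cultivar Dongjin between wild type (WT) and emf2b, with 2 libraries of each genotype. The genotype label of the emf2b samples names emf2b-1, an allele of the gene EMF2B. EMF2B encodes a subunit of Polycomb repressive complex 2, which places the repressive histone mark H3K27me3. Panicles were at inflorescence stage 7, between 0.3 and 1.5 cm long, from plants grown in a greenhouse under natural light with 30°C days and 25°C nights. The labels state neither the number of plants behind a library nor the kind of lesion in emf2b-1.

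Cytosine methylation in plants silences transposons and some genes. MET1 copies methylation at CG sites onto the new strand after replication, chromomethylases such as CMT3 keep methylation at CHG sites where histone H3 is methylated at lysine 9, and DRM2 places methylation anew where small RNAs direct it. DDM1 remodels nucleosomes so that methyltransferases reach heterochromatin, and glycosylases of the ROS1 family cut methylated cytosine out again. Rice has a pair of MET1 genes, of which MET1b is known as the main one, and a pair of DDM1 genes. ROS1a is the rice glycosylase known to be needed in gametophytes. The table holds no sequence for any of these genes.

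The libraries are named by genotype and barcode. WT ACCC and WT CGTA held 25382519 and 32087683 reads, and emf2b GAGT and emf2b TTAG held 12932305 and 16926873. Libraries of 1 genotype differed by more than counting noise, with a chi-square over loci of 39.7 per degree of freedom in emf2b and 53.8 in WT. The labels do not say that they came from separate plants, so p-values measure only the spread between these libraries. Levels are given as CPM, the reads of a gene scaled by the total of its library. EMF2B (LOC_Os09g13630) had 9.90 and 11.9 CPM in emf2b and 37.1 and 38.8 CPM in WT. The panicle markers were read in every library, from a summed 433 to 525 CPM over 7 genes. Of these, OsMADS1 and OsMADS6 fell and 5 did not pass the test described below. Among those 5, OsMADS14, OsMADS15, OsMADS34 and RFL had both emf2b libraries above both WT libraries in CPM, as did 32.5% of all tested loci. Their log2 fold changes (emf2b over WT) were 0.27 to 1.15, and the groups overlapped for OSH1. The 4 leaf photosynthesis markers summed to 19.0 to 61.6 CPM. All 4 leaf markers had reads, the sum was highest in emf2b TTAG, and none passed the test.

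MET1a was the only one of the 7 genes to fall, 0 rose, and the other 6 missed the threshold of the test. The test was edgeR's quasi-likelihood F test with Benjamini-Hochberg adjustment over all 22615 loci and a threshold of 0.05. Over all tested loci 2.21% were called lower and 13.5% higher. At an unadjusted p under 0.05, CMT3a was lower as well and again 0 were higher. Of all 22615 tested loci, 1849 were lower and 4619 higher at that unadjusted threshold of the edgeR test. A positive log2 fold change means higher in emf2b. The log2 fold changes of the 7 genes ran from -2.30 to 0.16, with a median of -0.32, and 6 of the 7 were negative. The median over all tested loci was 0.01 and 49.3% of them were negative. In CPM, both emf2b libraries lay below both WT libraries for 5 of the 7 genes and above them for 1, and the groups overlapped for 1. Among all tested loci, 24.6% lay wholly below and 32.5% wholly above.

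**Figure D1:**
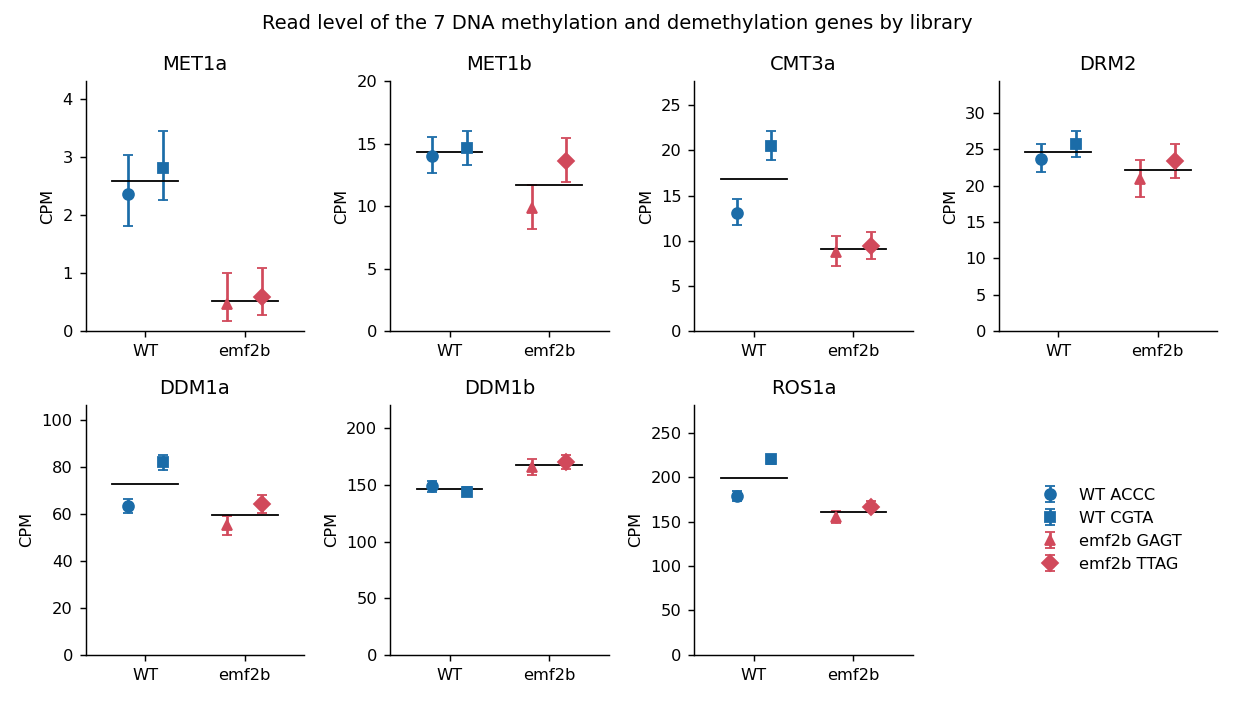
Read level in CPM of each gene in WT ACCC, WT CGTA, emf2b GAGT and emf2b TTAG, 1 panel a gene with an axis from 0. Points are libraries, bars are exact 95% counting intervals and black lines are group means. MET1a stands at 2.36 and 2.80 CPM in WT and 0.46 and 0.59 CPM in emf2b, and DDM1b has its emf2b libraries above WT.

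MET1a (LOC_Os03g58400, chromosome 3), one of the copies of the CG maintenance methyltransferase, had 60 reads in WT ACCC, 90 in WT CGTA, 6 in emf2b GAGT and 10 in emf2b TTAG. These are 2.36, 2.80, 0.46 and 0.59 CPM. Both emf2b libraries were low and the groups did not overlap, with emf2b-to-WT ratios of 0.165 to 0.250 over the 4 pairings of libraries. The counting intervals did not overlap either, with an upper bound of 1.01 CPM for emf2b GAGT and 1.09 CPM for emf2b TTAG against a lower bound of 1.80 CPM for WT ACCC. The group means were 2.58 ± 0.31 CPM for WT against 0.53 ± 0.09 CPM for emf2b (SD, n = 2 each). MET1a fell by 2.30 ± 0.52 on the log2 scale (SE; edgeR adjusted p = 0.0253), a 4.93-fold lower level in emf2b. A panicle holds several kinds of cells, so fewer cells of one type and less RNA per cell cannot be told apart. Only 0.243% of tested loci had a lower log2 fold change. Pooled over libraries, 16 reads in emf2b against 150 in WT gave a depth-adjusted ratio of 0.205 with an exact 95% interval of 0.114 to 0.345, for counting error only.

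The call of MET1a rested on all 4 libraries. Its log2 fold change stayed between -2.47 and -2.20 when any 1 library was left out, but the edgeR adjusted p rose to 0.0509 without emf2b GAGT, 0.0665 without emf2b TTAG, 0.186 without WT ACCC and 0.332 without WT CGTA. These fits keep 1 residual degree of freedom and assume that a lone library varies like the pair of the other genotype. Without WT CGTA, edgeR called 0 loci of the whole table in either direction, with 2649 higher and 893 lower at an unadjusted p under 0.05. A stricter count filter also ended the call (edgeR adjusted p = 0.0536, log2 fold change -2.21).

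MET1b (LOC_Os07g08500, chromosome 7), the paralog that supplied most MET1 reads, had 14.0 CPM in WT ACCC, 14.6 in WT CGTA, 9.82 in emf2b GAGT and 13.6 in emf2b TTAG. The emf2b libraries were both lower, but emf2b TTAG came close to WT ACCC, at 0.969 of its level. The log2 fold change was -0.32 ± 0.25 (SE; edgeR adjusted p = 0.450). The group means were 14.3 ± 0.42 CPM for WT against 11.7 ± 2.66 CPM for emf2b (SD, n = 2 each), so the spread within emf2b was about as large as the difference. Genes of the replication fork, PCNA and MCM2 to MCM7, were also lower in emf2b GAGT than in emf2b TTAG, with a summed 187 and 343 CPM. Their sums in WT ACCC and WT CGTA were 293 and 243 CPM. Unlike MET1b, this sum was higher in emf2b TTAG than in either WT library, and higher in WT ACCC than in WT CGTA. None of these 7 replication markers passed the test, and their part in the MET1b values was not tested.

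The balance of the MET1 pair did not overlap between the genotypes. MET1b made up 85.6% of MET1 reads in WT ACCC, 83.9% in WT CGTA, 95.5% in emf2b GAGT and 95.8% in emf2b TTAG. The exact 95% intervals were 81.8 to 88.8%, 80.6 to 86.9%, 90.4 to 98.3% and 92.5 to 98.0%, so those of the emf2b libraries lay above those of WT. The means were 84.7 ± 1.19% in WT and 95.7 ± 0.24% in emf2b (SD, n = 2 each), a difference of 10.9 percentage points. A two-sided exact permutation test over the 4 libraries gave p = 0.333, the smallest p that 2 against 2 allows. Summed, the pair stood at 16.4 and 17.4 CPM in WT ACCC and WT CGTA and 10.3 and 14.2 CPM in emf2b GAGT and emf2b TTAG, with a log2 fold change of -0.50 that did not pass (edgeR adjusted p = 0.230). How reads that match both copies were counted is not stated, so the split between MET1a and MET1b is less certain than their sum.

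**Figure D2:**
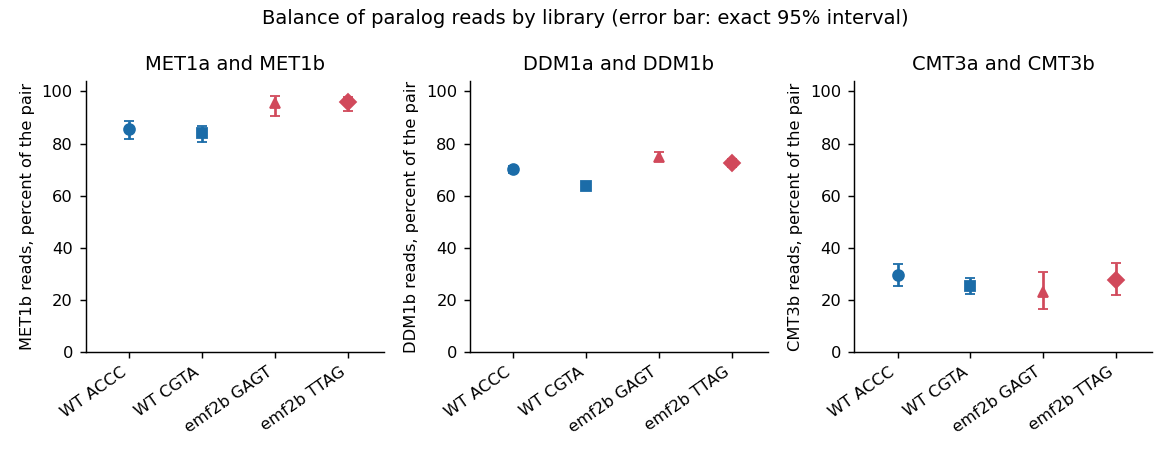
Percent of a pair's reads that came from the b copy in each library, for MET1, DDM1 and CMT3, with exact 95% intervals. MET1b holds 83.9 to 85.6% in WT and 95.5 to 95.8% in emf2b, and DDM1b 63.7 to 70.1% and 72.5 to 75.0%, while the CMT3b shares of the genotypes overlap.

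CMT3a (LOC_Os10g01570, chromosome 10), the chromomethylase that maintains CHG methylation, had 13.1 CPM in WT ACCC, 20.5 in WT CGTA, 8.74 in emf2b GAGT and 9.39 in emf2b TTAG. The emf2b libraries were alike and low, whereas WT CGTA stood 1.57 times as high as WT ACCC, the widest gap between libraries of a genotype among the 7 genes. The group means were 16.8 ± 5.25 CPM for WT against 9.07 ± 0.46 CPM for emf2b (SD, n = 2 each). The log2 fold change was -0.92 ± 0.28 (SE) and missed the threshold (edgeR adjusted p = 0.0699), with 4.38% of tested loci lower. DESeq2 placed it just past the threshold (log2 fold change -0.98, DESeq2 adjusted p = 0.0493). Without WT CGTA the value was -0.59 and without WT ACCC -1.22 (edgeR adjusted p = 0.472 and 0.120). Its close relative CMT3b (LOC_Os03g12570), which is not among the 7, had 5.48 and 6.92 CPM in WT ACCC and WT CGTA and 2.63 and 3.60 CPM in emf2b GAGT and emf2b TTAG. That log2 fold change was -1.02 ± 0.35 (SE; edgeR adjusted p = 0.0967). CMT3b made up 25.2 to 29.5% of the pair's reads in WT and 23.1 to 27.7% in emf2b, so the balance of this pair overlapped between the genotypes (two-sided exact permutation p = 0.667).

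DRM2 (LOC_Os03g02010, chromosome 3), the de novo methyltransferase at the end of the small RNA pathway, was counted on gene model 4 and the other 6 genes on model 1. It had 23.7 CPM in WT ACCC, 25.7 in WT CGTA, 20.9 in emf2b GAGT and 23.3 in emf2b TTAG. The groups were separated by a narrow gap, as emf2b TTAG reached 0.986 of WT ACCC. The log2 fold change was -0.19 ± 0.20 (SE; edgeR adjusted p = 0.576).

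The DDM1 pair of chromatin remodellers had log2 fold changes of opposite sign, and neither passed the test. DDM1a (LOC_Os09g27060, chromosome 9) had 63.5 CPM in WT ACCC, 82.2 in WT CGTA, 55.2 in emf2b GAGT and 64.5 in emf2b TTAG. Here emf2b TTAG lay above WT ACCC, so the groups overlapped, although the order of these libraries changed when CPM were divided by the normalization factors. DDM1b (LOC_Os03g51230, chromosome 3) had 148.6 and 144.0 CPM in WT ACCC and WT CGTA and 165.6 and 170.2 CPM in emf2b GAGT and emf2b TTAG. It was the only one of the 7 genes with both emf2b libraries above WT, and libraries of a genotype were close to each other. The log2 fold changes were -0.32 ± 0.19 (SE) for DDM1a and 0.16 ± 0.17 (SE) for DDM1b (edgeR adjusted p = 0.335 and 0.574). Under every alternative that kept the pair apart, DDM1a stayed negative (-0.50 to -0.15) and DDM1b positive (0.03 to 0.25).

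DDM1b supplied 70.1% of DDM1 reads in WT ACCC, 63.7% in WT CGTA, 75.0% in emf2b GAGT and 72.5% in emf2b TTAG. Both emf2b shares were above both WT shares, by 6.90 percentage points in the mean (two-sided exact permutation p = 0.333, again the smallest possible). The SD was 4.52 points in WT and 1.74 points in emf2b, and the difference was 3.70 points without WT CGTA. Summed, the pair was nearly level, with 212 and 226 CPM in WT and 221 and 235 CPM in emf2b, and a log2 fold change of 0.02 (edgeR adjusted p = 0.957).

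ROS1a (LOC_Os01g11900, chromosome 1), the glycosylase that removes methylated cytosine, had 179.0 CPM in WT ACCC, 220.1 in WT CGTA, 155.3 in emf2b GAGT and 166.6 in emf2b TTAG. The groups did not overlap, and emf2b TTAG was at 0.931 of WT ACCC. The group means were 199.6 ± 29.1 CPM for WT against 161.0 ± 7.96 CPM for emf2b (SD, n = 2 each). The log2 fold change was -0.34 ± 0.18 (SE; edgeR adjusted p = 0.258), and it ran from -0.49 without WT ACCC to -0.21 without WT CGTA.

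**Figure D3:**
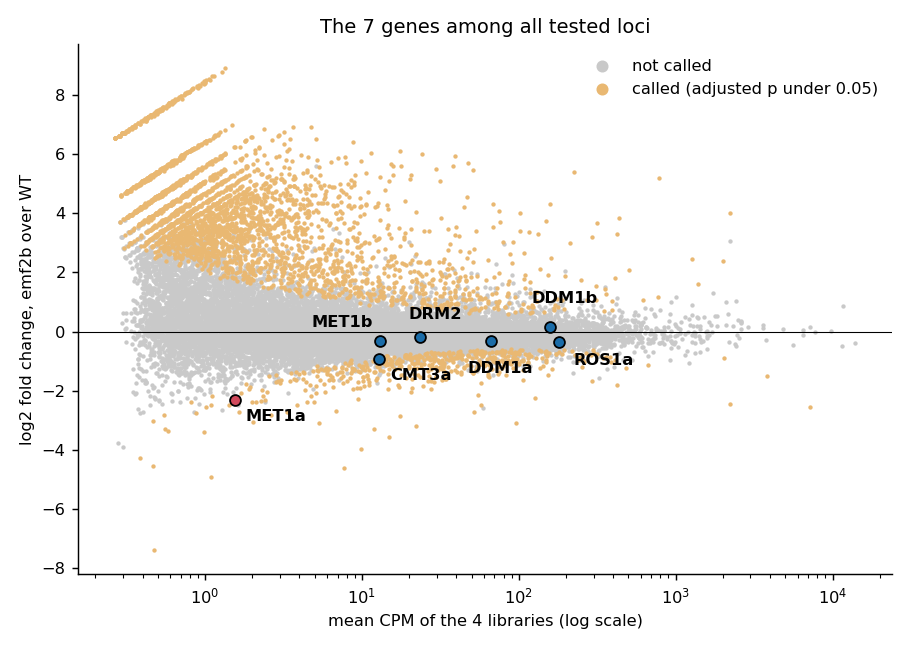
Log2 fold change (emf2b over WT) of all 22615 tested loci against their mean CPM on a log axis, with the 7 genes labelled. MET1a, in red, lies at -2.30 among the weakly read loci, and the 6 genes in blue lie between -0.92 and 0.16.

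Other genes of the pathway were described from 4 lists chosen with earlier results of these data known. Among the 24 listed loci, 21 were tested, of which 0 rose, 1 fell and 20 did not pass, with a median log2 fold change of -0.06. By comparison, 2.21% of all tested loci were called lower and 13.5% higher. The one that fell was DCL3b (LOC_Os10g34430), a Dicer-like gene known in rice for phased small RNAs of the panicle. It had 19.8 CPM in WT ACCC, 27.7 in WT CGTA, 9.43 in emf2b GAGT and 12.7 in emf2b TTAG, and the groups did not overlap. The log2 fold change was -1.13 ± 0.26 (SE; edgeR adjusted p = 0.0273). The DCL3b call ended with the stricter filter and without emf2b GAGT, WT ACCC or WT CGTA, with log2 fold changes from -1.36 to -0.90 over the 4 libraries left out.

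The remaining 8 genes of RNA-directed DNA methylation did not pass the test. They are the polymerase subunits NRPD1a, NRPD1b and NRPE1, the RNA-dependent polymerase RDR2, the Dicer-like gene DCL3a and the Argonautes AGO4a, AGO4b and AGO16, and the median of the list with DCL3b was -0.11. DCL3a, the paralog known for the small RNAs that guide DRM2, had a mean of 49.3 ± 5.42 CPM for WT against 47.1 ± 6.07 CPM for emf2b (SD, n = 2 each), and its log2 fold change was -0.10 ± 0.19 (SE). Among other methyltransferase genes 4 of 6 were tested and none passed, with a median of -0.20. The log2 fold changes farthest from 0 there were those of CMT3b, above, and of DRM3, a relative of DRM2, which had 77.7 ± 2.49 CPM for WT against 62.0 ± 0.36 CPM for emf2b (SD, n = 2 each). The DRM3 log2 fold change was -0.36 ± 0.17 (SE; edgeR adjusted p = 0.213). DRM1a and DRM1b were too weakly read to be tested, at 0 reads in both WT libraries and at most 5 reads in an emf2b library.

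Among the other glycosylase genes 4 of 5 were tested and none passed, with a median of -0.09. ROS1d, of the same family as ROS1a, had a log2 fold change of -0.27 ± 0.19 (SE; edgeR adjusted p = 0.412). DML3b had 0 and 16 reads in WT ACCC and WT CGTA and 3 and 22 in emf2b GAGT and emf2b TTAG, overlapping groups with a fitted log2 fold change of 1.53 ± 1.09 (SE; edgeR adjusted p = 0.411), whose sign turned to -0.23 without emf2b TTAG. ROS1b, not tested, had 4 and 6 reads in WT and 3 and 21 in emf2b.

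**Figure D4:**
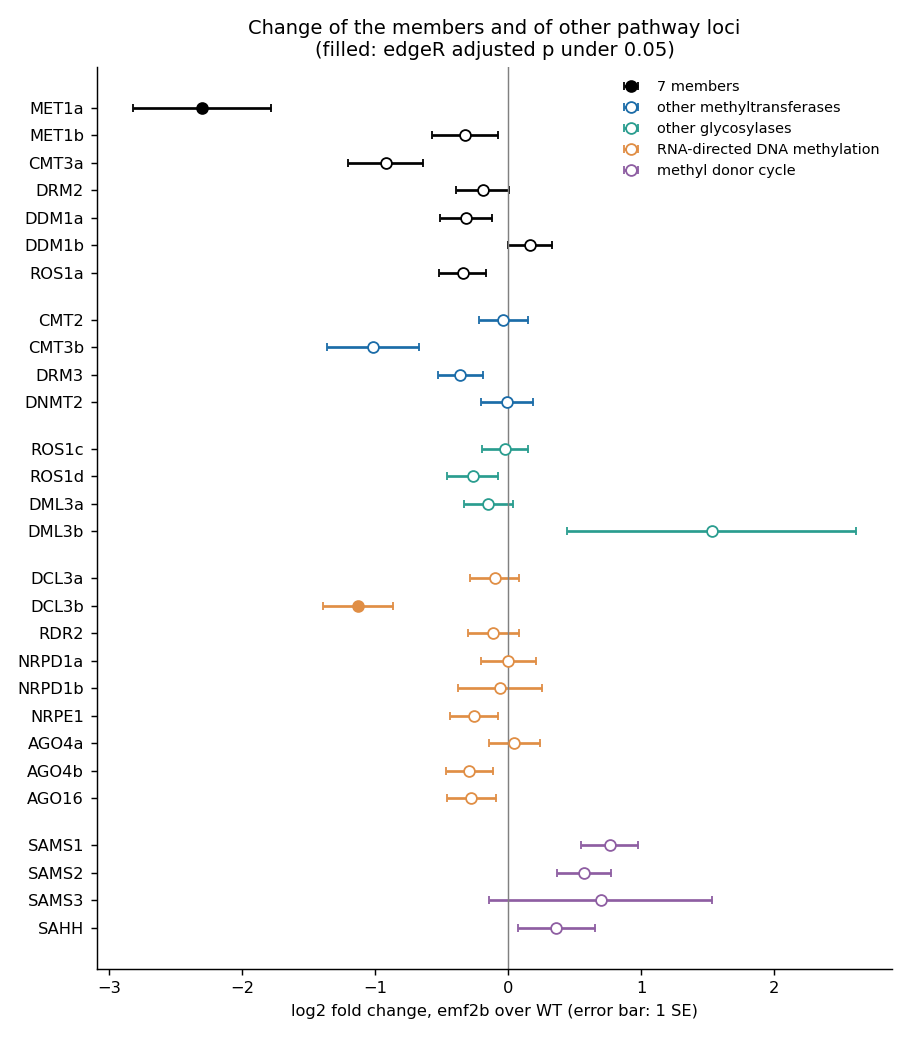
Log2 fold change (emf2b over WT) with 1 SE for the 7 genes and the 21 tested loci of 4 other pathway lists. Filled points passed the test, which are MET1a at -2.30 and DCL3b at -1.13, and the 4 genes of the methyl donor cycle lie above 0 with none past the test.

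Markers of early germ cells and meiosis were lower in emf2b as MET1a was. All 3 in the list fell, and their summed level was 243.8 and 288.6 CPM in WT ACCC and WT CGTA and 68.7 and 69.0 CPM in emf2b GAGT and emf2b TTAG. MEL1, an Argonaute of germ cells, had a log2 fold change of -2.71 ± 0.19, ZEP1, of the synaptonemal complex, -2.50 ± 0.21 and PAIR2, of the meiotic chromosome axis, -1.11 ± 0.23 (SE; edgeR adjusted p = 0.00299, 0.00490 and 0.0193). Without WT CGTA the log2 fold changes of MEL1 and ZEP1 were -2.63 and -2.51, and both calls ended (edgeR adjusted p = 0.0509 and 0.0554). The PAIR2 call ended without any 1 library, with log2 fold changes of -1.39 to -0.80, and with the stricter filter (-1.01, edgeR adjusted p = 0.0588). Their part in the MET1a, CMT3a and DCL3b values was not tested.

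Compared over the 4 libraries, the profile of each gene was set against the other tested loci of the lists as log2 CPM centred on its own mean. EMF2B was nearest to MET1a, with a root-mean-square distance of 0.164 on the log2 scale. This pairing is uncertain, because 0.1 CPM was added before the logarithm. That addition narrows the profile of MET1a, at 0.46 and 0.59 CPM in emf2b, more than that of EMF2B, at 9.90 and 11.9 CPM. In CPM without the addition, the emf2b-to-WT ratios of MET1a, 0.165 to 0.250, overlapped those of MEL1, 0.140 to 0.174. They lay below those of EMF2B, 0.255 to 0.320. Distances without the addition were not calculated, so EMF2B is given as nearest to MET1a only with the addition. PAIR2 was nearest to CMT3a, at 0.101. DDM1a and ROS1a were nearest to each other, at 0.0521, both being highest in WT CGTA and lowest in emf2b GAGT. MET1b was nearest to ROS1d at 0.0633, DRM2 to NRPE1 at 0.0421 and DDM1b to AGO4a at 0.0958. These distances are a description over 4 libraries that all of the genes share.

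The loci beside each gene were compared by locus number, with 10 tested loci on each side. The loci just before and just after MET1a had log2 fold changes of -0.13 and -0.36 (edgeR adjusted p = 0.753 and 0.323), and among the 20 neighbours of MET1a 0 were called higher and 1 lower, with a median of -0.27. The lower one was MEL1, also on chromosome 3, and of the 9 tested loci between MET1a and MEL1 none was called (median -0.26).

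Both loci next to MET1b and both next to CMT3a were called higher, although they were weakly read (edgeR adjusted p = 0.0253 and 0.00896 beside MET1b, 0.0144 and 0.0240 beside CMT3a). Beside MET1b, the locus before it had 86 reads in the emf2b pair and 17 in the WT pair, a depth-adjusted ratio of 9.74 with an exact 95% interval of 5.74 to 17.5. The locus after it had 71 and 2 reads, a ratio of 68.3 with an interval of 18.2 to 575. Beside CMT3a, 46 and 3 reads gave a ratio of 29.5 (interval 9.49 to 148) and 21 and 1 reads a ratio of 40.4 (interval 6.50 to 1672). The sizes of these ratios are therefore loosely set. In each case 6 of 20 neighbours were called higher and 0 lower, against 13.5% higher over all tested loci. DDM1a had 5 higher and 0 lower of 20, DDM1b 1 and 0, ROS1a 2 and 1, and DRM2 1 and 2. Whether the counting used strand is not stated, so overlapping neighbours could share reads with these genes.

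**Figure D5:**
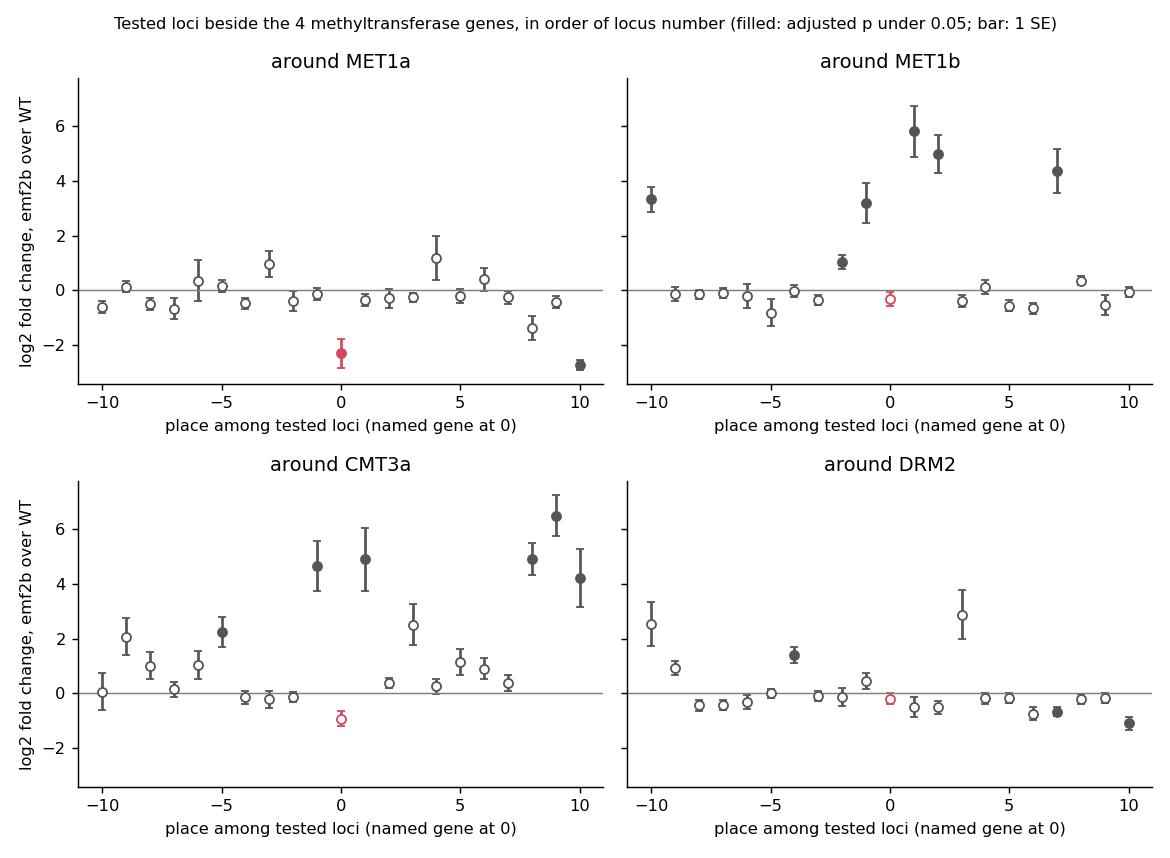
Log2 fold change (emf2b over WT) with 1 SE of the 10 tested loci on each side of MET1a, MET1b, CMT3a and DRM2, in order of locus number with the named gene in red at place 0 and filled points past the test. The loci next to MET1a are near 0, while those next to MET1b and CMT3a have fitted values between 3.21 and 5.82, set by as few as 1 to 17 WT reads.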

How the data were processed

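Panicle RNA was profiled in 4 libraries, 2 WT and 2 emf2b. Per the labels' protocols, cDNA was amplified from 10 ng of RNA (NuGEN Ovation) and sequenced as single reads of 40 cycles. The protocol text names wild-type tissue for all samples, so groups follow the genotype label. The deposited values are whole numbers of reads per gene model, and they were taken to be raw counts not normalized by the authors. Per the submitters' processing notes, TopHat2 2.0.5 and DESeq 1.10.1 were among the tools. Which program counted reads, on which build and gene models, with or without strand, is not stated in the sources. Totals were 12932305 to 32087683 counts, at which 3 reads equal 0.0935 to 0.232 CPM. Column names carry a genotype and barcode but no replicate number, so each column was assigned to a group.

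In R 4.3.3, edgeR 4.0.16 was run with filterByExpr (minimum count 10, minimum total 15), TMM factors (0.973 to 1.03) and the quasi-likelihood F test with group as the only term and 2 residual degrees of freedom. The SE is the absolute log2 fold change over the square root of F. CPM use the library total without the factor. Shares and read ratios have exact 95% intervals that cover counting error only. Alternatives were RLE factors, library totals, 2 other filters, DESeq2 1.42.0, robust and legacy dispersions (the last added after the data were seen), thinning to equal depth, summed paralogs and each library left out.

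The 7 genes, the lists and the rule for named genes were chosen with earlier results of these data known. The rule named all 7 genes and each called locus of the other lists. In lists with none, it named the 2 with the largest change. It also named the nearest profile of each of the 7 genes. DCL3a, ROS1b, DRM1a, DRM1b, SAMS2 and SAHH, and the neighbours, were added after their values were seen. Also outside the rule were the values of OsMADS14, OsMADS15, OsMADS34, RFL and OSH1. The permutation test of the CMT3 balance was not among the planned tests, unlike those of MET1 and DDM1. The profile distances added 0.1 CPM before the logarithm. The table does not pair identifiers with names. Of 53 names, 28, with 4 of the 7 genes among them, were found on the chromosome of their locus in RefSeq's genes for ASM3414082v1. The builds could not be matched, so its coordinates were used only for the order of genes. All 41 pairs of these names on a chromosome were in the same order by locus number. DDM1a, DDM1b, ROS1a, CMT3b, DCL3b and EMF2B were among the 24 not found, and 1 name matched several genes, so these names rest on general knowledge. Gene lengths were not available for the counted models, so levels are compared between libraries and not between genes.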

Additional observations from a re-analysis of the deposited data

How the results depend on the processing

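With 2 libraries a genotype, calls depend strongly on the libraries and the filter. Against 3057 loci called higher and 499 lower, the stricter filter (minimum count 50) called 808 and 115, and thinning to equal depth 1820 and 278. Leaving out 1 library gave 0 to 3673 higher and 0 to 401 lower, with 0 of each without WT CGTA. Of the 7 genes, 0 were called higher under any alternative; lower were 1 with all libraries, 0 with the stricter filter, 2 with DESeq2 (MET1a and CMT3a), 0 with paralogs summed, and 0 to 0 with 1 library left out. Summing the paralogs put DDM1a at 0.020, a reversed sign, since the sum is mostly DDM1b. Signs of uncalled loci also turned for DML3b (-0.23), MCM6 (-0.10) and CAB2R (-0.35) without emf2b TTAG and for MCM2 (0.091) without emf2b GAGT; the leave-one-out ranges were -0.23 to 6.89, -0.10 to 0.52, -0.35 to 1.09 and -0.75 to 0.091. Fitting every locus with any reads moved the median of the fitted loci to 0.63 (0.73 with DESeq2) and MET1a only to -2.43. No paired analysis was possible because the columns carry barcodes and no replicate numbers. Genes at MET1a's depth, 6 to 90 reads, are limited by counting.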

Other observations

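S-adenosylmethionine is the methyl donor for DNA and histone methylation and for many other reactions, and S-adenosylhomocysteine hydrolase (SAHH) clears the product that inhibits them. All 4 listed genes were tested and all had positive log2 fold changes, from 0.36 to 0.76 with a median of 0.63, but 0 passed the test. SAMS1 had 25.3 CPM in WT ACCC, 21.2 in WT CGTA, 35.7 in emf2b GAGT and 45.0 in emf2b TTAG, with no overlap between the groups (log2 fold change 0.76 ± 0.21 SE, edgeR adjusted p = 0.0508). It passed only under RLE factors (edgeR adjusted p = 0.0481) and library totals alone (edgeR adjusted p = 0.0447). It did not pass with DESeq2 (DESeq2 adjusted p = 0.0793), the stricter filter (edgeR adjusted p = 0.0793) or no filter (edgeR adjusted p = 0.130). Over all alternatives its log2 fold change ran from 0.62 to 0.89. SAMS2 had 30.7 and 32.8 CPM in WT and 53.9 and 42.5 CPM in emf2b, again without overlap (0.57 ± 0.20 SE, edgeR adjusted p = 0.110). SAHH was at 2444 and 2063 CPM in WT ACCC and WT CGTA and at 3512 and 2407 CPM in emf2b GAGT and emf2b TTAG, so its groups overlapped. SAMS3 had at most 13 reads in a library.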
